A study of Mus musculus with 4 samples.

Results

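The genes described here act in the cell cycle. They are 41 listed mouse genes: 21 that act in mitosis, 16 that act at the entry into S phase and in DNA replication, and 4 regulators of the G1 phase (*Ccnd1*, *Ccnd2*, *Cdkn1a* and *Cdkn1b*). Of the 41 genes, 39 had a probe set that names no other gene, out of 22180 genes measured in this way. These were 20 mitotic genes, 15 replication genes and the 4 G1 regulators. *Ccne2* lay only on a probe set that also names *Ints8*, and no probe set of *Ccnb1* was used, so both are not analysed here. Primary astrocytes came from the cortex of newborn CRTC3 KO and WT pups on the C57BL/6J background. The CRTC3 KO mice lack CRTC3, a coactivator of the cAMP-responsive transcription factor CREB, in the whole body and not in astrocytes alone. Cultures received 25 µM forskolin (FSK) for 2 h, an activator of adenylyl cyclase that raises cAMP, or vehicle (0.1% DMSO), for which no duration was given. The 4 conditions were CRTC3 KO with FSK, CRTC3 KO with vehicle, WT with FSK and WT with vehicle, and all shared the same glial culture steps: medium with granulocyte-macrophage colony-stimulating factor and removal of microglia by shaking. Neither the number nor the sex of the pups behind a culture was stated. Each condition has 1 array (Affymetrix GeneChip mouse 2.0 ST), so the differences below could not be tested against the spread between cultures. Signals are gene-level log2 values that the authors normalized by RMA, and a difference of 0.585 on this scale is 1.5-fold.

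A cell commits to division in G1, when D-type cyclins and their kinases inactivate the retinoblastoma protein and free E2F transcription factors. E2F factors switch on genes for origin licensing, the replicative helicase and nucleotide supply, and a later wave of genes for cyclin B with CDK1, the spindle, the kinetochore and the spindle checkpoint follows in G2 and mitosis. The transcripts of both waves are scarce in resting cells, and glial cells of newborn cortex divide in culture until contact and differentiation slow them.

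The promoters of these genes carry known sequence elements of both waves, which are shown here because the replication and the mitotic genes are compared throughout. RefSeq promoters of build GRCm38.p6, from 250 bases before to 50 after the annotated start, were found for 34 of the 41 genes, with 36 promoters in all. The cell cycle genes homology region (CHR, searched as TTTGAA or TTCGAA on both strands), an element of late cell cycle promoters, stood in 14 of 18 promoters of mitotic genes (77.8%) and in 3 of 15 promoters of replication genes (20.0%), while 19.2% of all 32851 promoters held it. E2F sites (TTTCCCGC, TTTGGCGC, TTTCGCGC or TTTGCCGC on both strands) stood in 1 promoter of a mitotic gene, that of *Cdk1* (5.56%), and in 7 of the 15 of replication genes (46.7%), while 2.26% of all promoters held one. CCAAT boxes (CCAAT on both strands) were found in 83.3% of the mitotic and 73.3% of the replication promoters and in 37.4% of all promoters. The cAMP response element bound by CREB (CRE, TGACGTCA, which reads the same on both strands) stood in the promoters of *Cenpe*, *Ndc80* and *Mcm5*, and in 1.79% of all promoters. Its short form TGACG, which is contained in the full element, stood in 38.9% of the mitotic, 40.0% of the replication and 20.8% of all promoters. A match is a description of the letters and no evidence that a factor binds there.

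Stretches of 220 bases, from 170 before to 50 after the start, show the CHR in capitals for mitotic genes with large differences between the genotypes and for *Cdc20*. They lie at chr9:70421505-70421724 (*Ccnb2*), chr4:118437294-118437513 (*Cdc20*), chr2:127831810-127832029 (*Bub1*) and chr17:71526808-71527027 (*Ndc80*), all on the minus strand and written 5′ to 3′ in the sense of the gene. The stretch of *Ndc80* has its CHR on the opposite strand, as TTCAAA, and holds the CRE in lower case upstream of it.
Ccnb2: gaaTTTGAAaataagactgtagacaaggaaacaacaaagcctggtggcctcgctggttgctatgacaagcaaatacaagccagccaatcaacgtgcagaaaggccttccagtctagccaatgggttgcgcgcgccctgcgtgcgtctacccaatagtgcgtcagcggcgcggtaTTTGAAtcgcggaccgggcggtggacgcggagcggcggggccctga
Cdc20: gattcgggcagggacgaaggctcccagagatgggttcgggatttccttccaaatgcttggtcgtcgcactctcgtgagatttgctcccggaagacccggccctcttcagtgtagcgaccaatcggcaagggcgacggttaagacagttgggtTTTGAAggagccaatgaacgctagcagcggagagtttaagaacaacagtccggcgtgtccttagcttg
Bub1: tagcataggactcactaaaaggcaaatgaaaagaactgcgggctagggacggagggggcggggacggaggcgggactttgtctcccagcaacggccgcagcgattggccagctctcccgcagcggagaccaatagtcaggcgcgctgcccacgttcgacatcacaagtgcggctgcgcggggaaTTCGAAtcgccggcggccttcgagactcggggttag
Ndc80: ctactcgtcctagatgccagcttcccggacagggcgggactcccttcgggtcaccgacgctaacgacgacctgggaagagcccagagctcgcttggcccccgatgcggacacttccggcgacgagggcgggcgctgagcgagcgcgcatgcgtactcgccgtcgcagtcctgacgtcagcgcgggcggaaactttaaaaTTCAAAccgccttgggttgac

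Replication genes are shown in the same way with their E2F sites in capitals. They lie at chr8:75109339-75109558 on the plus strand (*Mcm5*), chr1:128359656-128359875 on the minus strand (*Mcm6*), chr1:20820263-20820482 on the minus strand (*Mcm3*) and chr12:24708084-24708303 on the plus strand (*Rrm2*). In *Mcm5* and *Mcm6* a forward and a reverse match overlap, which makes the run of capitals longer. The stretch of *Rrm2*, the gene with the largest difference between the genotypes, holds none of the E2F letters searched.
Mcm5: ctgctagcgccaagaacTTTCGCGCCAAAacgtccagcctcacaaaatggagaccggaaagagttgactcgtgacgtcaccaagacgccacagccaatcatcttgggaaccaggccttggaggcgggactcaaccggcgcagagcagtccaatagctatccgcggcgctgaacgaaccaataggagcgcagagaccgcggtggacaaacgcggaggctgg
Mcm6: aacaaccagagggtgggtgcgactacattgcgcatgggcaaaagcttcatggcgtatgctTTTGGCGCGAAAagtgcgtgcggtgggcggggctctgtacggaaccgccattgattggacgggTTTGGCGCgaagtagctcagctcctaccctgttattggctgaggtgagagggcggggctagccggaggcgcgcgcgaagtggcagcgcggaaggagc
Mcm3: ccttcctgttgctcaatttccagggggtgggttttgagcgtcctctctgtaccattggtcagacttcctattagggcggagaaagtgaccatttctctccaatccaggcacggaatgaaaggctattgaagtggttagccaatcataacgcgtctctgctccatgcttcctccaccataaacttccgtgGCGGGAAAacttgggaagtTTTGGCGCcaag
Rrm2: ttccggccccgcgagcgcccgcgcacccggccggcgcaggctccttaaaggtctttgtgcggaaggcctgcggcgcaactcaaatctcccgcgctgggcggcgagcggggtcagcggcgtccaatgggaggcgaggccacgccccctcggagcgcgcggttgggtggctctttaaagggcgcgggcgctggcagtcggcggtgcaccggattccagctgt

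The labels were first checked against the arrays. *Crtc3* had a log2 signal of 5.49 with FSK and 4.92 with vehicle in CRTC3 KO astrocytes, against 8.14 and 7.75 in WT astrocytes. Of 17 measured astrocyte markers, 14 reached 5.81, the median signal of the gene probe sets. So did 16 of 16 microglia and macrophage markers and 10 of 12 fibroblast and mural cell markers. Thus the count does not set astrocytes apart from these cells. Some lists of cell type markers differed between the genotypes and others were near level. Astrocyte markers had a summed linear signal of 16032 with FSK and 15269 with vehicle in CRTC3 KO, against 11163 and 11011 in WT, and 15 of the 17 were higher in CRTC3 KO with vehicle (median difference 0.50). Fibroblast and mural cell markers had a summed signal of 6936 and 8025 in CRTC3 KO, against 16403 and 16001 in WT, and 11 of 12 were lower in CRTC3 KO with vehicle (median -0.73). Microglia and macrophage markers summed to between 16518 and 16566 in CRTC3 KO and between 14555 and 14889 in WT. With vehicle, the median difference was -0.01 over 11 oligodendrocyte and precursor markers, 0.00 over 14 neuron markers, -0.09 over 10 endothelial markers and 0.13 over 7 ependymal markers. *Xist*, which is transcribed from the inactive X chromosome of female cells, had signals of 4.49 and 4.66 in CRTC3 KO and 9.17 and 9.39 in WT. *Eif2s3y*, *Kdm5d* and *Uty*, genes of the Y chromosome, had signals between 6.84 and 8.26 in CRTC3 KO and between 6.24 and 7.78 in WT, above the median of gene probe sets on all arrays. The part of these differences in the results below was not tested, and with 1 array per condition they cannot be told apart from the genotype.

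CRTC3 KO astrocytes had lower signals of cell cycle genes than WT astrocytes, and more so after FSK. On the FSK arrays, 39 of 39 measured genes had a lower signal in CRTC3 KO, where 50.0% of all genes did, and their median difference was -0.53. With vehicle, 37 of 39 were lower, against 48.2% of all genes, with a median of -0.25. At least 1.5-fold lower were 15 genes with FSK, against a background of 3.75% of all genes, and 3 genes with vehicle (*Rrm2*, *Ccna2* and *Ndc80*), against 2.00%. None of the 39 was 1.5-fold higher in CRTC3 KO, where 2.02% of all genes were with FSK and 1.26% with vehicle. Both CRTC3 KO arrays lay below both WT arrays for 32 of the 39 genes, a pattern found for 22.9% of all genes. In a bulk culture, fewer dividing cells, less RNA per dividing cell and a different mix of cell types cannot be told apart.

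**Figure D1:**
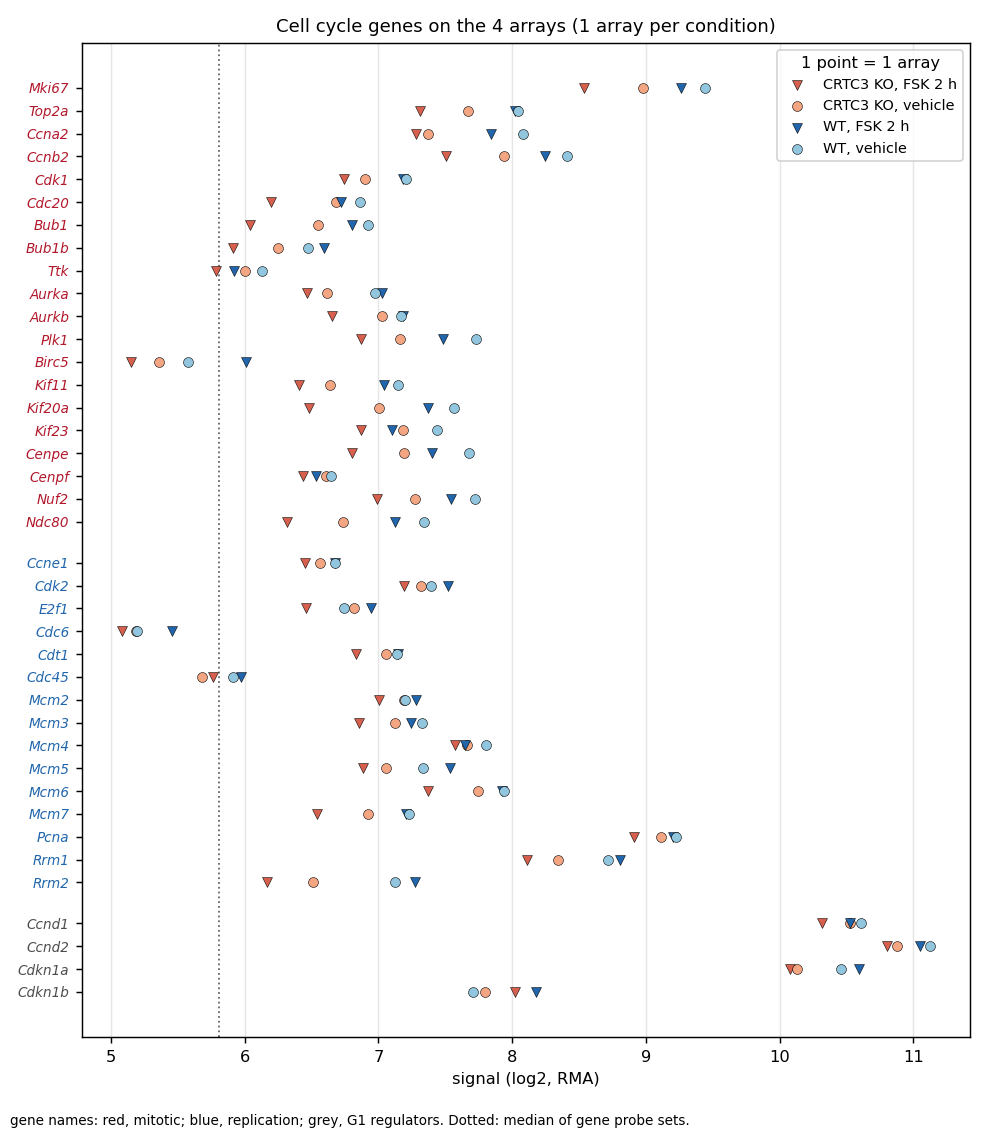
Log2 signal (RMA) of the 39 genes on the 4 arrays, with 1 point per array and the median of all gene probe sets as a dotted line. The CRTC3 KO FSK array gives the lowest point for 37 of the 39 genes, and red, blue and grey names mark mitotic genes, replication genes and G1 regulators.

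The mitotic genes differed more between the genotypes than the replication genes did. With FSK, all 20 mitotic genes were lower in CRTC3 KO, with a median difference of -0.60, and 11 of them were at least 1.5-fold lower. All 15 replication genes were lower too, with a median of -0.38, and 4 of them passed 1.5-fold. Of all genes, 50.0% were lower with FSK, and 3.75% were at least 1.5-fold lower. With vehicle, 20 of 20 mitotic and 14 of 15 replication genes were lower, against 48.2% of all genes. The medians with vehicle were -0.37 over the mitotic genes and -0.14 over the replication genes. The mitotic median was thus 0.23 further below 0 than the replication median under either treatment. Over all 11993 genes that reached the median signal on any array, the median difference was 0.03 with FSK and 0.02 with vehicle. This order of the classes has no test, since genes of an array are not replicates.

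**Figure D2:**
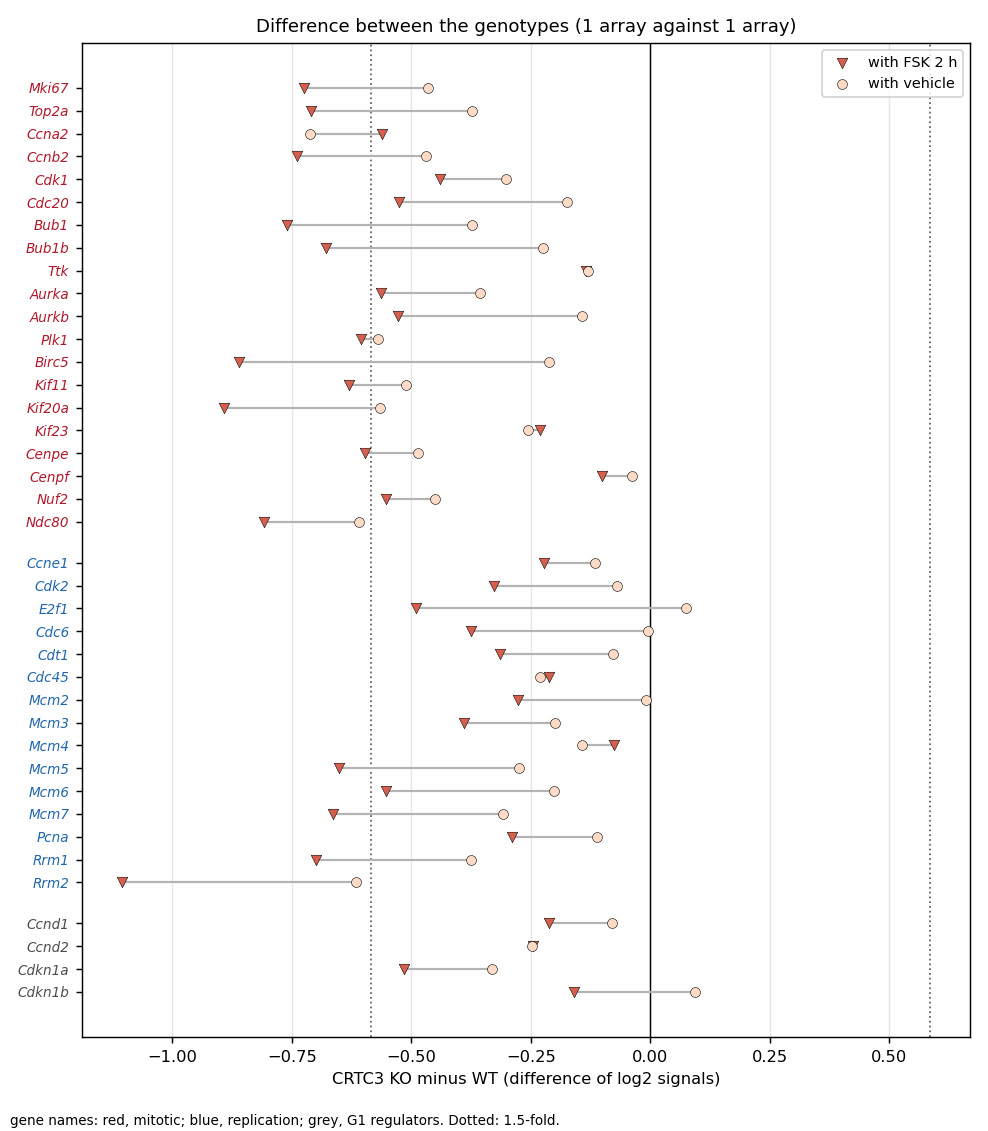
CRTC3 KO minus WT difference of log2 signals for each of the 39 genes, with FSK (triangles) and with vehicle (circles), and dotted lines at 1.5-fold. With FSK every gene lies left of 0, and 15 genes lie beyond the 1.5-fold line.

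Among the mitotic genes, *Mki67*, whose product Ki-67 coats mitotic chromosomes and marks dividing cells, had log2 signals of 8.53 with FSK and 8.98 with vehicle in CRTC3 KO, against 9.26 and 9.44 in WT. Both CRTC3 KO arrays were below both WT arrays, and the difference was -0.73 with FSK and -0.47 with vehicle. *Top2a*, the topoisomerase that untangles sister chromatids, had signals of 7.31 and 7.67 in CRTC3 KO, against 8.02 and 8.05 in WT. Its WT arrays were nearly level, so FSK arrays differed from vehicle arrays by -0.36 in CRTC3 KO and by -0.03 in WT.

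The cyclins and their kinase were lower in CRTC3 KO as well. Signals of *Ccna2*, the cyclin of S phase and G2, were 7.28 with FSK and 7.37 with vehicle in CRTC3 KO, and 7.84 and 8.08 in WT. It was the gene with the largest difference with vehicle (-0.71) and had a smaller one with FSK (-0.56), unlike most of the genes. *Ccnb2*, a mitotic cyclin, had 7.51 and 7.94 in CRTC3 KO and 8.25 and 8.41 in WT. Here the FSK arrays were further apart, with differences of -0.74 with FSK and -0.47 with vehicle. *Cdk1*, the kinase that drives entry into mitosis, had 6.75 and 6.90 in CRTC3 KO and 7.19 and 7.20 in WT, and its differences of -0.44 and -0.30 stayed under 1.5-fold.

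Genes of the spindle checkpoint, which delays anaphase until all chromosomes are attached, had the lowest values on the CRTC3 KO FSK array. All 20 mitotic genes shared this, against 27.1% of all genes. The checkpoint kinase gene *Bub1* had signals of 6.04 with FSK and 6.55 with vehicle in CRTC3 KO, against 6.80 and 6.92 in WT. Differences between the genotypes were -0.76 with FSK and -0.37 with vehicle, and its FSK response in CRTC3 KO was -0.51. *Bub1b*, which encodes the checkpoint protein BubR1, had 5.92 and 6.25 in CRTC3 KO and 6.59 and 6.48 in WT. It was lower with FSK in CRTC3 KO and higher with FSK in WT, which gave a difference of -0.68 on the FSK arrays and -0.22 on the vehicle arrays. *Cdc20*, which activates the anaphase-promoting complex, differed by -0.53 with FSK and -0.18 with vehicle. *Ttk*, the gene of the checkpoint kinase MPS1, differed by -0.14 and -0.13 and was among the mitotic genes least different between the genotypes.

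Mitotic kinases and the chromosomal passenger complex, which corrects faulty attachments, differed in how far the gap between the genotypes changed with FSK. *Plk1*, a kinase of spindle assembly and cytokinesis, had signals of 6.87 with FSK and 7.16 with vehicle in CRTC3 KO, and 7.48 and 7.73 in WT. The differences of -0.61 and -0.57 were nearly the same under both treatments. *Birc5*, which encodes the passenger protein survivin, had 5.15 and 5.36 in CRTC3 KO and 6.01 and 5.58 in WT, and the WT FSK array was its only one above the median of gene probe sets. Its difference was -0.86 with FSK and -0.21 with vehicle. The Aurora kinase genes *Aurka* and *Aurkb* differed by -0.56 and -0.53 with FSK, and by -0.36 and -0.14 with vehicle.

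Mitotic motor genes were lower in CRTC3 KO too, to unequal degrees. The kinesin gene *Kif11*, whose motor separates the spindle poles, had signals of 6.41 with FSK and 6.63 with vehicle in CRTC3 KO, against 7.04 and 7.15 in WT, with differences of -0.63 and -0.51. *Kif20a*, a kinesin of the central spindle, had 6.48 and 7.0 in CRTC3 KO and 7.37 and 7.57 in WT. It had the largest difference among the mitotic genes with FSK (-0.89) and one of -0.57 with vehicle. *Kif23*, another mitotic kinesin gene, had only -0.23 and -0.26, with the CRTC3 KO vehicle array (7.18) slightly above the WT FSK array (7.10).

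At the kinetochore, which ties chromosomes to spindle microtubules, *Ndc80* had signals of 6.32 with FSK and 6.74 with vehicle in CRTC3 KO and 7.13 and 7.34 in WT. The 4 arrays were well apart, and the difference passed 1.5-fold under both treatments (-0.81 with FSK and -0.61 with vehicle). Only *Rrm2* shared this. *Cenpe*, a kinetochore motor, had 6.81 and 7.19 in CRTC3 KO and 7.40 and 7.68 in WT, and it differed by -0.60 and -0.49. With each array centred on its median, the difference with FSK was -0.58, just under 1.5-fold. *Nuf2*, which binds Ndc80 in the same complex, differed by -0.55 and -0.45. *Cenpf*, a large coiled-coil protein of the outer kinetochore, was close to level, with differences of -0.10 and -0.04.

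Replication genes differed most in nucleotide supply. *Rrm2*, the regulated subunit of ribonucleotide reductase, which makes deoxynucleotides, had log2 signals of 6.17 with FSK and 6.51 with vehicle in CRTC3 KO, against 7.28 and 7.13 in WT. Its differences of -1.10 with FSK and -0.62 with vehicle included the only one of all 39 genes past 2-fold. A second probe set of *Rrm2*, with a signal below the median of gene probe sets on all arrays, gave -0.53 with FSK and 0.13 with vehicle, so the size of the difference depends on the probe set and the sign with vehicle was not the same. *Rrm1*, the large subunit, had 8.11 and 8.34 in CRTC3 KO and 8.81 and 8.72 in WT, with differences of -0.70 and -0.38. The replication clamp gene *Pcna* had 8.91 and 9.12 in CRTC3 KO and 9.20 and 9.23 in WT. Differences of -0.29 and -0.11 place it under 1.5-fold.

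Origins of replication are licensed when the ORC, Cdc6 and Cdt1 proteins load the MCM helicase. All 9 genes of licensing and the helicase were lower in CRTC3 KO under both treatments, with medians of -0.38 with FSK and -0.20 with vehicle. Of all genes, 50.0% were lower with FSK and 48.2% with vehicle. *Mcm5* had signals of 6.89 with FSK and 7.06 with vehicle in CRTC3 KO, against 7.54 and 7.33 in WT, and *Mcm7* had 6.54 and 6.92 in CRTC3 KO, against 7.21 and 7.23 in WT. Both passed 1.5-fold with FSK only, at -0.65 and -0.66, and their differences with vehicle were -0.27 and -0.31. *Mcm2* had 7.0 and 7.19 in CRTC3 KO and 7.28 and 7.20 in WT, which left the vehicle arrays level (-0.01) and the FSK arrays apart (-0.28). *Mcm4*, of the same helicase, differed by -0.08 with FSK and -0.14 with vehicle, so the 6 subunits did not differ to the same degree. *Cdc6* stayed below the median of gene probe sets on all 4 arrays, and RMA compresses differences of such dim genes.

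At the G1/S boundary, *Ccne1*, the cyclin that activates Cdk2, had signals of 6.45 with FSK and 6.56 with vehicle in CRTC3 KO, against 6.67 and 6.68 in WT, with differences of -0.22 and -0.12. *E2f1*, a transcription factor of the replication genes, had 6.46 and 6.81 in CRTC3 KO and 6.95 and 6.74 in WT. It was slightly higher in CRTC3 KO with vehicle (0.07) and lower with FSK (-0.49), as its signal was lower with FSK than with vehicle in CRTC3 KO and higher with FSK in WT. *Cdk2* moved in the same manner within a smaller range, with differences of -0.33 with FSK and -0.07 with vehicle.

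None of the 4 G1 regulators passed 1.5-fold between the genotypes, and their median difference was -0.23 with FSK and -0.16 with vehicle. *Ccnd1*, the gene of cyclin D1, had signals of 10.32 with FSK and 10.53 with vehicle in CRTC3 KO and 10.53 and 10.61 in WT. *Ccnd2* had 10.80 and 10.88 in CRTC3 KO and 11.05 and 11.12 in WT, so its difference was -0.25 under either treatment. *Cdkn1a*, which encodes the CDK inhibitor p21, had 10.08 and 10.13 in CRTC3 KO and 10.59 and 10.46 in WT. This inhibitor of division was lower in CRTC3 KO, with differences of -0.51 with FSK and -0.33 with vehicle, like the genes that drive division. *Cdkn1b*, the gene of the CDK inhibitor p27, had 8.02 and 7.80 in CRTC3 KO and 8.18 and 7.70 in WT. Its pattern was another one: both FSK arrays were above both vehicle arrays.

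The FSK response of the cell cycle genes was small in both genotypes and downward mainly in CRTC3 KO. In CRTC3 KO astrocytes, 37 of 39 genes had a lower signal with FSK than with vehicle, where 51.8% of all genes did, with a median response of -0.23. The exceptions were *Cdc45*, a helicase cofactor, and *Cdkn1b*. In WT astrocytes, 24 of 39 were lower with FSK, against 50.3% of all genes, with a median of -0.03. No gene reached 1.5-fold in either genotype or direction. Of all genes, 0.681% were at least 1.5-fold lower and 0.514% higher with FSK in CRTC3 KO, and 0.757% were lower and 1.23% higher in WT. The lowest of the 4 signals was on the CRTC3 KO FSK array for 37 of the 39 genes, against 27.1% of all genes.

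**Figure D3:**
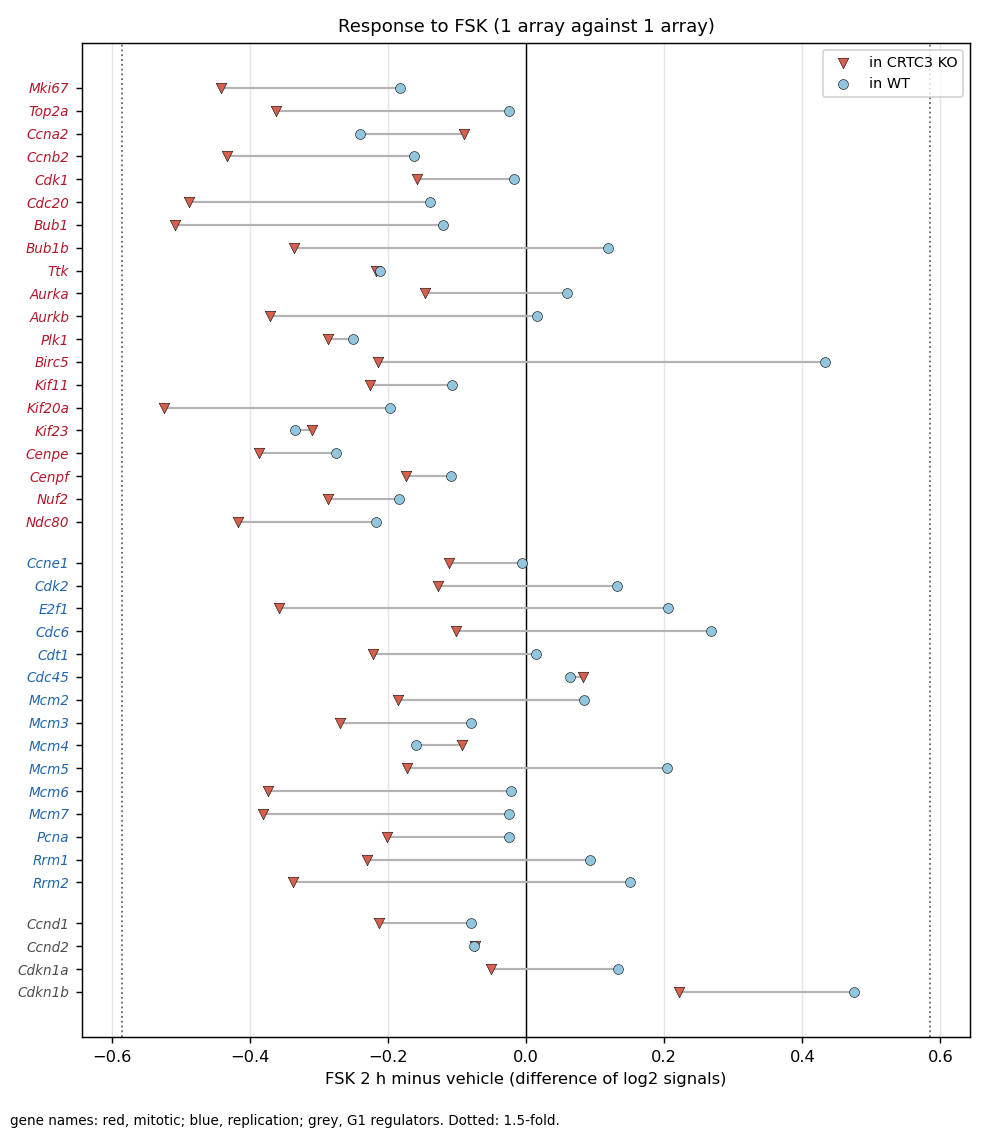
FSK minus vehicle difference of log2 signals for each of the 39 genes in CRTC3 KO (triangles) and in WT (circles), with dotted lines at 1.5-fold. Nearly all triangles lie left of 0, whereas the WT circles of replication genes lie on both sides of it.

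The classes differed in WT. Signals of 20 of 20 mitotic genes were lower after FSK in CRTC3 KO (median -0.32), and of 16 of 20 in WT (median -0.15). Over the whole array, 51.8% of all genes were lower with FSK in CRTC3 KO and 50.3% in WT. Among the mitotic kinesins and the kinetochore genes, all 7 were lower with FSK in both genotypes, while *Birc5* had a response of -0.21 in CRTC3 KO and 0.43 in WT. Among replication genes, 14 of 15 were lower after FSK in CRTC3 KO (median -0.20), and 6 of 15 in WT (median 0.06). The WT count of the replication genes was thus near the share of all genes. *Cdc6* and *E2f1* were higher with FSK in WT by 0.27 and 0.21, and *Mcm5* by 0.20. The response in CRTC3 KO was below that in WT for 34 of the 39 genes, against 11409 of all 22180 genes. The median gap was -0.24, or -0.20 over the mitotic and -0.27 over the replication genes, and -0.008 over all genes. A signal lower with FSK in CRTC3 KO and higher with FSK in WT was found for 13 of the 39 genes, 8 of them replication genes and 4 mitotic, against 26.0% of all genes, so the share of this pattern among the cell cycle genes was near the background.

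**Figure D4:**
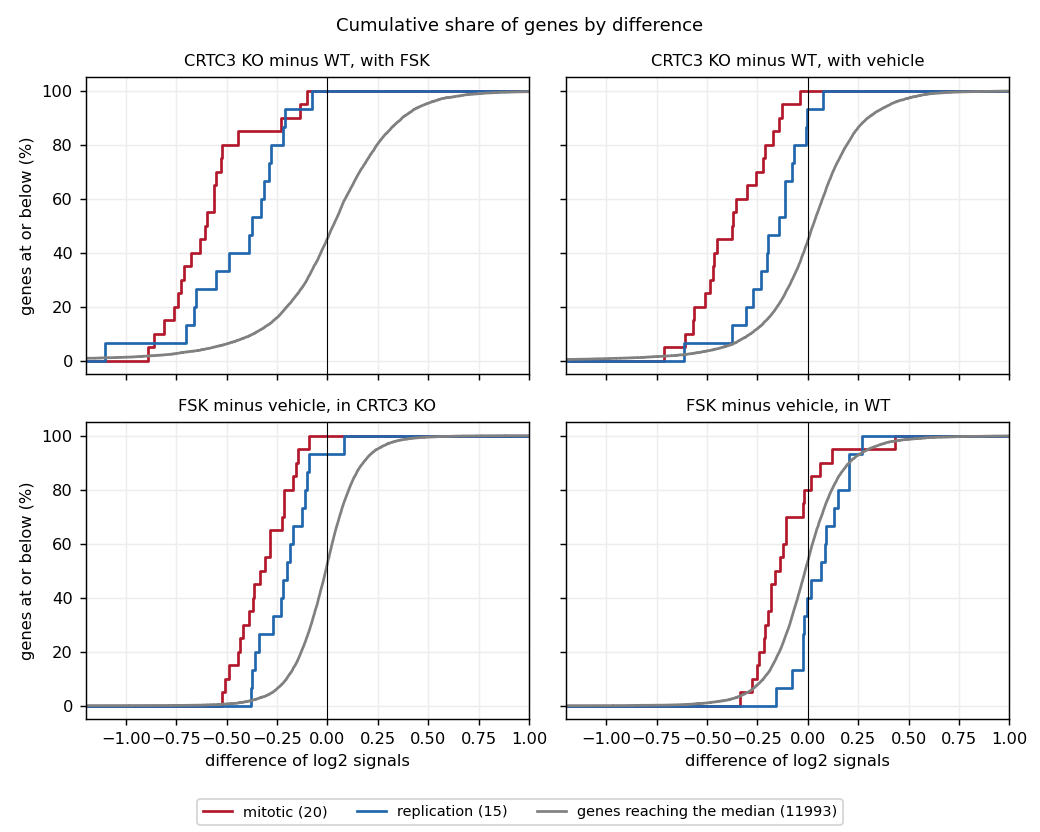
Cumulative share of genes by difference of log2 signals, for the 20 mitotic genes, the 15 replication genes and the 11993 genes that reached the median signal. Both classes lie left of the other genes in the comparisons of the genotypes and in the FSK response of CRTC3 KO, whereas in WT only the mitotic genes do.

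Other genes of the same processes gave like values on the same 4 arrays. Their lists were chosen with earlier results of these data known, so they add no independent support. Of 49 other mitotic genes measured, 49 were lower in CRTC3 KO with FSK (median -0.45) and 45 with vehicle (median -0.28). The shares of all genes were 50.0% and 48.2%. At least 1.5-fold lower were 22 with FSK (44.9%), against 3.75% of all genes, and 3 with vehicle (6.12%), against 2.00%. *Melk*, a kinase gene of dividing cells, had the largest difference with FSK (-1.01), followed by *Cdca5*, which encodes the cohesion protein sororin (-0.86), and *Anln*, which encodes anillin of the cleavage furrow (-0.85). With vehicle it was *Kif4* (-0.76) and *Ube2c*, the ubiquitin-conjugating enzyme of the anaphase-promoting complex (-0.76). With FSK in CRTC3 KO, 46 of the 49 were lower than with vehicle, and in WT 34, against 51.8% and 50.3% of all genes. In CRTC3 KO, 2 of the 49 (4.08%) were at least 1.5-fold lower with FSK, against 0.681% of all genes. They were *Cenpk* (-0.75), below the median signal on all arrays, and *Sgo1* (-0.70). *Cenpa*, the centromere histone gene, went the other way with an FSK response of 0.43 in CRTC3 KO and 0.74 in WT.

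Of 33 other replication genes, 32 were lower in CRTC3 KO with FSK (median -0.36) and 25 with vehicle (median -0.17). The shares of all genes were 50.0% and 48.2%. At least 1.5-fold lower were 3 with FSK (9.09%), against 3.75% of all genes, and 1 with vehicle (3.03%), against 2.00%. The share with vehicle was thus near the background. *Tyms*, which makes thymidylate, differed by -0.72 with FSK and 0.07 with vehicle, and *Fen1*, which trims Okazaki fragments, by -0.63 and 0.03. Both had an FSK response below 0 in CRTC3 KO (-0.34 and -0.26) and above 0 in WT (0.45 and 0.40), which is the pattern of *E2f1*. With FSK in CRTC3 KO, 29 of the 33 were lower than with vehicle, and in WT 16, against 51.8% and 50.3% of all genes. Only *Gins1*, below the median signal on all arrays, passed 1.5-fold in CRTC3 KO (-0.61). This was 3.03% of the list, against 0.681% of all genes.

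Upstream regulators and inhibitors were less uniform in direction. A further list held 31 genes of the RB-E2F pathway and the DREAM complex, which represses cell cycle genes in resting cells. Of these, 21 were lower in CRTC3 KO with FSK (median -0.25), against 50.0% of all genes, and 22 with vehicle (median -0.14), against 48.2%. Higher were 10 with FSK and 9 with vehicle, among them *Rb1* (0.50 and 0.27) and *Rbl2* (0.40 and 0.28), none by 1.5-fold. *E2f8*, a repressor of the E2F family expressed in dividing cells, differed by -0.75 and -0.83, and *Cdk6*, a partner of D-type cyclins, by -0.80 and -0.44. *Myc* had an FSK response of -0.01 in CRTC3 KO and -0.75 in WT. Of 21 CDK inhibitors and p53 target genes, 13 were lower in CRTC3 KO with FSK (median -0.17), against 50.0% of all genes, and 10 with vehicle (median 0.04), against 48.2%, so their direction was near the background with vehicle. The largest differences were those of *Pmaip1*, the gene of the apoptosis protein Noxa (-1.02 with FSK), and *Plk2* (-0.89 with vehicle).

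**Figure D5:**
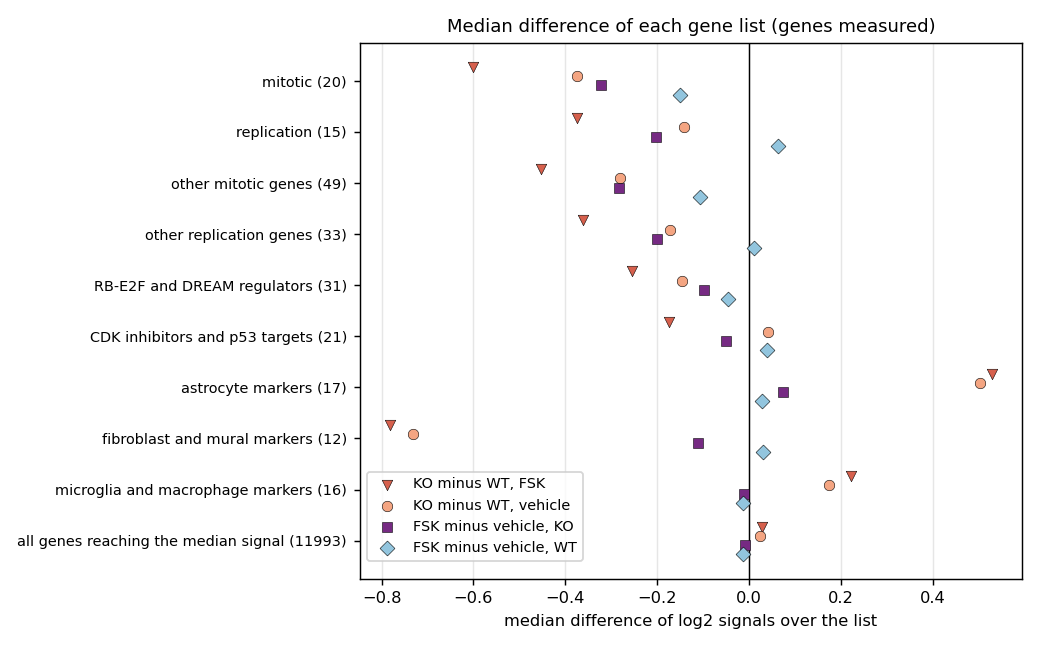
Median difference of log2 signals over each gene list in the 4 comparisons, with the number of genes measured in brackets. The medians of the mitotic and replication lists lie left of 0 in both comparisons of the genotypes, those of astrocyte markers right of 0, and those of fibroblast and mural markers furthest left.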

How the data were processed

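Total RNA of the 4 conditions was labeled and hybridized to Affymetrix GeneChip mouse 2.0 ST arrays, 1 per condition. The authors deposited gene-level log2 values, made by RMA (background correction, equalization of the array distributions and median polish) in Affymetrix Expression Console. Neither the software version nor the build of the probe annotation is stated in the sources used here. Of 41345 probe sets, 23521 named 1 gene, 1820 several and 16004 none in the platform annotation. Gene identifiers of 23328 of the 23521 were found in RefSeq, which changed 0 symbols. For the 1082 of 22180 genes with several probe sets, the probe set with the highest mean was taken. The medians of the 4 arrays lay between 5.48 and 5.50. No detection call was used.

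Differences of log2 values were computed and counted at 1.5-fold, following the fold-change comparison of the study's methods. The genotype differences with FSK and with vehicle share no array, nor do the FSK responses of the genotypes, but each genotype difference shares arrays with both responses. The number of arrays limits the precision. Members, classes and gene lists were chosen with earlier results of these data known. Values on all arrays are given for members at least 1.5-fold different in any comparison and for Mki67, Top2a, Cdk1, Mcm2, Mcm5, Pcna, Rrm2, Ccne1, E2f1, the D-type cyclins and the CDK inhibitors. From other lists, up to 4 genes past 1.5-fold per comparison could be named, and further genes serve as examples chosen after their values were seen, as were the printed promoter stretches. RefSeq promoters were searched for motifs as exact letters. Alternatives were quantile normalization over gene probe sets, centring of each array, the mean over probe sets of a gene, a floor or a filter at the median signal, other classes for Ccna2, Top2a and Cdk2, and folds of 2 and 1.25; removal of the trend with mean signal was added after seeing the data. The choice of probe set, the differences, the count at 1.5-fold, quantile normalization and centring were tested on simulated data, and the other steps were not. Calculations ran in Python 3.11.15 (pandas 2.3.3, numpy 2.4.6, figures by matplotlib 3.10.9).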

Additional observations from a re-analysis of the deposited data

Results flagged for a closer look

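For 13 genes the signal was lower with FSK than with vehicle in CRTC3 KO and higher with FSK than with vehicle in WT, so that the 2 responses had opposite signs. This pattern was found for 26.0% of all genes, and its share among the 39 cell cycle genes was near that background. Since each response rests on 1 array per condition, the difference between the responses was not tested. Given as the CRTC3 KO response minus the WT response, it was -0.26 for *Cdk2*, -0.56 for *E2f1*, -0.37 for *Cdc6*, -0.24 for *Cdt1*, -0.27 for *Mcm2*, -0.38 for *Mcm5*, -0.32 for *Rrm1* and -0.49 for *Rrm2* among the replication genes. Among the mitotic genes it was -0.45 for *Bub1b*, -0.21 for *Aurka*, -0.39 for *Aurkb* and -0.65 for *Birc5*, and it was -0.18 for *Cdkn1a*. The median response of the replication genes was also opposite in sign, at -0.20 in CRTC3 KO and 0.064 in WT.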

How the results depend on the processing

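Of 256 values under the 10 alternatives, 245 kept their direction and moved by no more than 0.1 on the log2 scale, or by no more than 1.5 times for a count, 11 moved further and 0 reversed. Many of these values had little room to move. Among the genes only *Rrm2* has several probe sets, the filter left out only *Cdc6*, and RMA had already equalized the arrays. With vehicle, 3 genes were lower in CRTC3 KO by 1.5-fold or more. There were 5 after quantile normalization and 5 with the trend with mean signal removed. With each array centred on its median, 14 genes in place of 15 were 1.5-fold lower in CRTC3 KO with FSK, as *Cenpe* was at -0.58. At 2-fold, 0 genes were lower in CRTC3 KO with vehicle and 1 with FSK. At the lowest fold limit tried, 15 were lower with vehicle and 27 with FSK, 14 were lower with FSK in CRTC3 KO, and in WT 1 was lower and 2 were higher with FSK. With the mean of its probe sets, *Rrm2* differed by -0.82 with FSK and -0.25 with vehicle. All 39 genes were lower in CRTC3 KO with FSK under each of the other scalings and choices of probe set tried. No paired analysis was possible because each condition has 1 array, and for the same reason no array could be left out. Differences of genes near the background are compressed by RMA, and *Cdc6* is the member below the median signal on all arrays.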

Other observations

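The CRE letters stood in the promoters of 3 of the genes, and their FSK responses were below 0 except that of *Mcm5* in WT. *Mcm5* had a response of -0.17 in CRTC3 KO and 0.20 in WT, *Cenpe* of -0.39 and -0.27, and *Ndc80* of -0.42 and -0.22. In CRTC3 KO and in WT alike, none of these responses reached 1.5-fold. Their differences between the genotypes on the FSK arrays were -0.65, -0.60 and -0.81, past 1.5-fold like 3.75% of all genes, although that of *Cenpe* was -0.58 with each array centred on its median.

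The CHR lay between 100 bases before and 50 after the start in each of the 14 mitotic genes whose promoter holds it, and in 2 of the 3 replication genes. Among the 14 mitotic genes, the difference between the genotypes with FSK ranged from -0.10 for *Cenpf* to -0.81 for *Ndc80*. *Birc5*, *Cenpe* and *Nuf2*, whose promoters hold no CHR, differed by -0.86, -0.60 and -0.55. Whether the CHR goes with the size of the difference was not tested.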
